A study of Mus musculus with 14 samples.

Results

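Mitosis and spindle genes were followed in bulk tumours grown from LLC1, a mouse line of Lewis lung carcinoma, whose hosts had been treated for 16 days. The set holds 50 genes of mitosis, listed by symbol and found by matching the mouse Ensembl gene IDs of the expression table to symbols. All 50 were found among the 21152 genes of the table, and all 50 passed the filter on low values that left 13711 genes for testing. The 14 libraries fall into 4 groups by treatment. Vehicle (DMSO) has 4 libraries, MYCi975 at 50 mg/kg has 4, TMP195 at 50 mg/kg has 3, and the combination of both compounds, labelled Combo, has 3. MYCi975 is a compound that inhibits MYC, a transcription factor of growth and division, and TMP195 blocks class IIa histone deacetylases. The series asks which transcriptional changes these treatments cause in vivo. All groups share the LLC1 tumour and its mouse host. The labels name an enriched tumour population as the source of the RNA and the design text a suspension of the bulk tumour, so how far host cells were removed is unclear. The sources used here do not give the strain, sex or age of the mice, nor the doses inside the combination. Whether replicates are different mice is not said in the labels, so a p-value reflects only the spread among these libraries, which may be technical.

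Mitosis is run by a short burst of kinase activity. Cyclin A and cyclin B bind the kinase Cdk1 and drive the cell into mitosis, and the Polo and Aurora kinases build the spindle. Kinetochores then attach chromosomes to its microtubules, the spindle checkpoint holds the anaphase-promoting complex until attachment is complete, and cytokinesis divides the cell. Most of these genes are transcribed late in the cell cycle, in G2 and mitosis, so in a tumour their RNA is widely used to mark dividing cells. In bulk RNA, fewer dividing cells and less RNA per dividing cell cannot be told apart. Much of this late transcription is known to run through a short promoter element, the cell cycle genes homology region (CHR), which the MuvB complex binds together with B-Myb or FoxM1, and through nearby CCAAT boxes, which the factor NF-Y binds. MYC itself binds the E-box with its partner MAX.

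The promoters of the set are shown first, since they are what most of its members share outside the expression values. RefSeq sequences of build GRCm38.p6, from 250 bases before to 50 bases after the start, were at hand for 41 of the 50 genes as 44 promoters. Ccna2, Cdc25c, Tpx2, Aurkb, Incenp, Spc24, Kif20a, Smc4 and Foxm1 had no entry. The letters TTTGAA of the CHR element, on either strand, were found in 33 of the 44 promoters (75%), against 12.6% of the 12180 promoters of tested genes and 17.9% of all 32851 promoters of the same length. In 30 of the 33, the match nearest to the start lay within 50 bases of it, which held for 25.4% of the 1531 promoters of tested genes with a match. The letters CCAAT, on either strand, were found in 34 of the 44 (77.3%), against 37.6% of the promoters of tested genes. Both were found in 29 (65.9%), against 5.07%. The E-box letters CACGTG, which read the same on both strands, were found in 3 promoters (6.82%), those of Anln, Espl1 and Ttk, against 9.75% of the promoters of tested genes. A match is a description of the letters in this window and does not show binding.

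The whole window is printed for 8 genes whose values are described further on, 5′ to 3′ along the gene, in lower case with the CHR, CCAAT and E-box matches in capitals on whichever strand they fell. Matches of different motifs overlapped in 1 of the 44 promoters. Cdk1, Plk1, Cdc20, Kif11, Top2a and Ccnb2 are shown because each holds CHR and CCAAT letters, Anln because it holds CHR letters and an E-box, and Bub1 because it holds CCAAT letters and no CHR match.
Cdk1: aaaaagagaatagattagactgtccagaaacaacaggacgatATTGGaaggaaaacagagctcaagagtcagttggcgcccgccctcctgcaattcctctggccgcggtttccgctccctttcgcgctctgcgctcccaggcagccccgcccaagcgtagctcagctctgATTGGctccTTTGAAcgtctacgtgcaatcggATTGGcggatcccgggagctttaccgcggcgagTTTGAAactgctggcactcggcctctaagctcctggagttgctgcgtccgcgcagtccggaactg
Plk1: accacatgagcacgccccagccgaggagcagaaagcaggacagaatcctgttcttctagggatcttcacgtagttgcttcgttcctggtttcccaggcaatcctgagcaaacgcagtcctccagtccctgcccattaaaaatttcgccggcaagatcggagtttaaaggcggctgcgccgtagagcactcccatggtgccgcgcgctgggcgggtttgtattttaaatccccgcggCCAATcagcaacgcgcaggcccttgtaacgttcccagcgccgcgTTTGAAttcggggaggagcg
Cdc20: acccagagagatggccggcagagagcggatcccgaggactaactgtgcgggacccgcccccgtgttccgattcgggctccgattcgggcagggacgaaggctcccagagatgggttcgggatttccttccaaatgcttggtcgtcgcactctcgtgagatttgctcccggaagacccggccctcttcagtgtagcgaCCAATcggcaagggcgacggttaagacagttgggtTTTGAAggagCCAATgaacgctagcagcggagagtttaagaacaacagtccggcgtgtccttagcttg
Kif11: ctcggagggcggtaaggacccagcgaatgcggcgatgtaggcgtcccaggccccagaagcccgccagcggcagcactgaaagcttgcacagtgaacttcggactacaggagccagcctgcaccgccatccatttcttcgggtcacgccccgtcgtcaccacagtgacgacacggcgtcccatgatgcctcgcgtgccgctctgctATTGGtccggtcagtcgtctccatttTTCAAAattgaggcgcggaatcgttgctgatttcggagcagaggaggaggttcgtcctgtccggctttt
Top2a: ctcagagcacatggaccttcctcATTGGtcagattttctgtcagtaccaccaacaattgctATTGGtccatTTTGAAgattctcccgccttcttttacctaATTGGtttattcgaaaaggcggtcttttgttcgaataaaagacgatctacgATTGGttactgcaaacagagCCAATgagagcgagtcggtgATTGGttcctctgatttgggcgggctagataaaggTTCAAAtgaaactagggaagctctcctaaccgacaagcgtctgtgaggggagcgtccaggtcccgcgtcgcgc
Ccnb2: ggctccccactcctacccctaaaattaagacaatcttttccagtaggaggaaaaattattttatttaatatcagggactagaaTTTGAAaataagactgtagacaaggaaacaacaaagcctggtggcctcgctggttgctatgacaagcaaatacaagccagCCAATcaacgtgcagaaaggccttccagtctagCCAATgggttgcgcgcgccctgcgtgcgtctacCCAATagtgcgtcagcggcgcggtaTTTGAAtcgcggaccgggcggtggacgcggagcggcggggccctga
Anln: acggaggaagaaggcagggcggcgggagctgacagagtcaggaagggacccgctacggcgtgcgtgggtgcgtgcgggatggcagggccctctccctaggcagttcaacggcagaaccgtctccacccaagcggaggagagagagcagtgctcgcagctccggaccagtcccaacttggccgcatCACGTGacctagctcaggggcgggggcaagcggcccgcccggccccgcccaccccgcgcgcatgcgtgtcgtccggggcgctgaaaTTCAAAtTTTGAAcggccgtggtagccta
Bub1: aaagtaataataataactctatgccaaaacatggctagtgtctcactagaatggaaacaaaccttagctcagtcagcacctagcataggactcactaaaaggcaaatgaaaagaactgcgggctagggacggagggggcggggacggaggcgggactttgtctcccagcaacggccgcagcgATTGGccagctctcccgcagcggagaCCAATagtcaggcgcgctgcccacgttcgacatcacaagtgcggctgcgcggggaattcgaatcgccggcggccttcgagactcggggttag
These windows lie at chr10:69352863-69353162 (minus strand) for Cdk1, chr7:122159185-122159484 (plus strand) for Plk1, chr4:118437294-118437593 (minus strand) for Cdc20 and chr19:37376132-37376431 (plus strand) for Kif11. Those of the other genes are chr11:99024140-99024439 (minus strand) for Top2a, chr9:70421505-70421804 (minus strand) for Ccnb2, chr9:22389157-22389456 (minus strand) for Anln and chr2:127831810-127832109 (minus strand) for Bub1. Positions of a match are those of its first base, counted from the start of the gene, with negative values upstream. In Cdk1 the CHR match nearest to the start is at -15 and the nearest CCAAT box at -48. In Kif11 they are at -19 and -45, so in both genes a CCAAT box sits upstream of the CHR letters. Cdc20 has its CHR match at -18, between CCAAT boxes at -53 and -8. Plk1 carries its CHR match downstream of the start, at 31, and its CCAAT box at -14. Anln has CHR matches at 22 and 29 and its E-box at -65, and Bub1 has CCAAT boxes at -68 and -42.

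**Figure D1:**
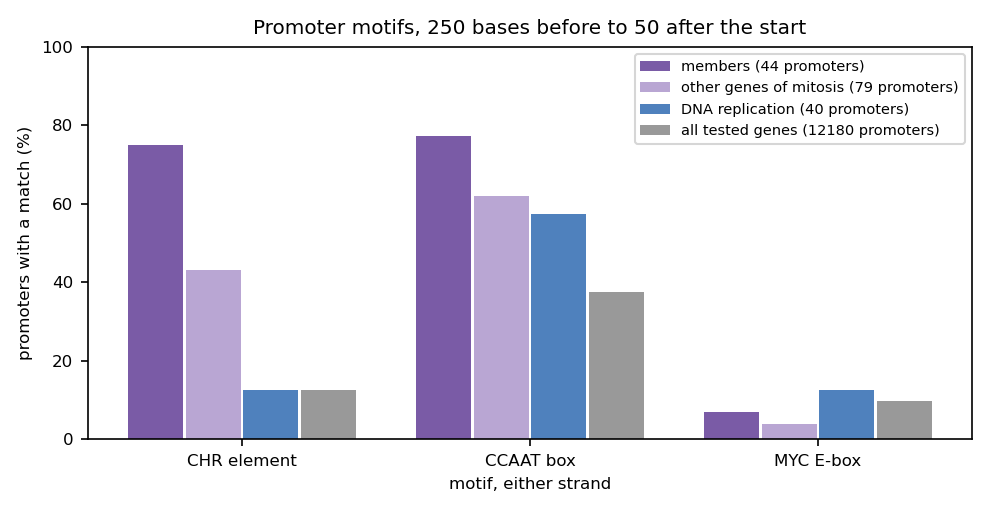
Share of promoters, in percent, that hold a CHR element, a CCAAT box or a MYC E-box on either strand, for the set's members, other genes of mitosis, DNA replication genes and all tested genes. CHR letters stand in 75% of the members' promoters against 12.6% for all tested genes, while the E-box share is 6.82% against 9.75%.

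The list of 84 other genes of mitosis, which holds no member of the set, had CHR letters in 34 of 79 promoters (43%) and CCAAT letters in 62%. Genes of DNA replication, which are transcribed earlier in the cell cycle, had CHR letters in 5 of 40 promoters (12.5%) and CCAAT letters in 57.5%. The CHR share of the replication genes was thus near that of all tested genes, and the CCAAT share was above it.

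Expression values are on a log2 scale after a variance-stabilising transformation by the authors, and the lowest value of the table is 4.05, which many genes share within a library. They are not adjusted for gene length, so levels are compared between libraries and not between genes. Below, the values of a gene are given in the order of the replicate numbers within each group. Over all 50 members and 14 libraries the values lay between 5.61 (Cdc25c) and 11.36 (Top2a), all above the lowest value.

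Marker genes show what else the tumour RNA holds. Ptprc, the pan-leukocyte antigen CD45, lay between 9.65 and 12.07, the keratin genes Krt8 and Krt18 between 7.84 and 8.88, and Epcam was at the lowest value in 4 libraries. MYCi975 replicate 2 had the highest mean of 5 leukocyte markers (1.18 above the mean of all libraries) and of 6 neutrophil markers (1.36). Between 880 and 2954 genes were at the lowest value per library, most of all in MYCi975 replicate 2, and read depth is unknown. The mitosis genes were lowest in the same library, as given next, and the part of depth or RNA quality in that was not tested.

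No member of the set passed limma's test in any comparison. The members did vary between libraries, and they varied together. To show this, the mean of each gene over the 14 libraries was subtracted and the 50 remainders were averaged in each library. These library means were 0.055, -0.052, 0.24 and -0.074 with vehicle, -0.022, -0.25, 0.24 and -0.052 in MYCi975 tumours, 0.014, -0.11 and -0.15 in TMP195 tumours, and 0.10, 0.012 and 0.051 in the combination. Vehicle replicate 3 and MYCi975 replicate 3 stood highest, with 47 and 46 of the 50 genes above their own mean. MYCi975 replicate 2 stood lowest, with 43 of 50 below, followed by TMP195 replicate 3 with 42 below. The MYCi975 group thus spanned nearly the whole range, and the groups overlapped. The vehicle libraries averaged 0.042 ± 0.14 (SD, n = 4) and the MYCi975 libraries -0.022 ± 0.20 (SD, n = 4). The TMP195 libraries averaged -0.083 ± 0.086 (SD, n = 3) and the combination libraries 0.055 ± 0.046 (SD, n = 3). The groups thus differed by less than the SD of the vehicle or MYCi975 libraries. The TMP195 and combination means lay further apart than the SD of either group, and their libraries just overlapped (0.014 against 0.012).

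**Figure D2:**
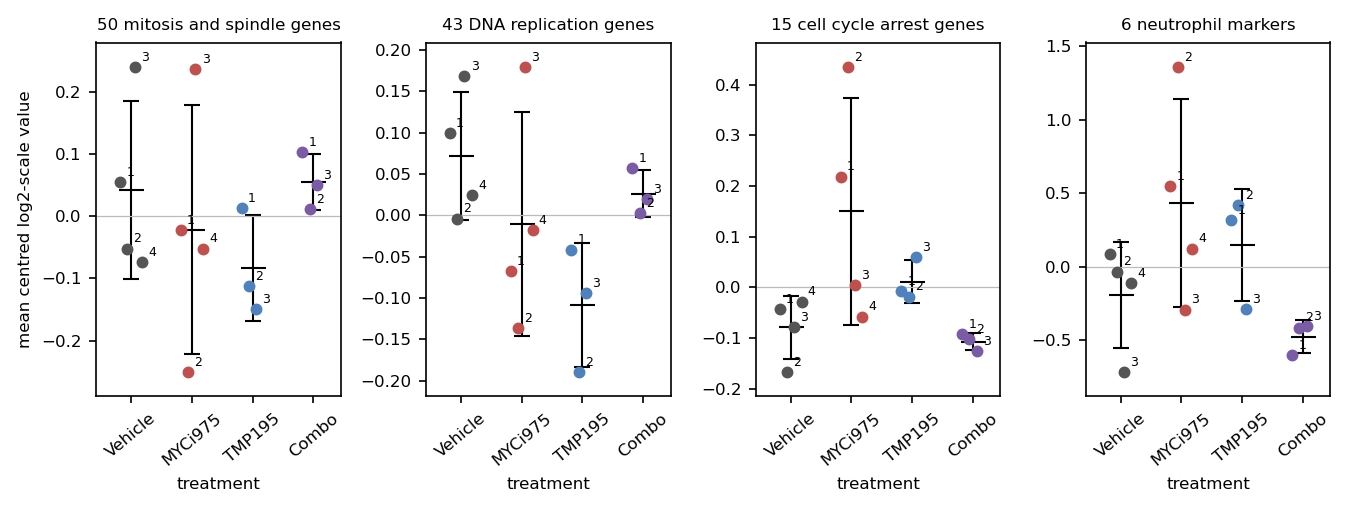
Mean centred log2-scale value in each library for the 50 mitosis and spindle genes, 43 DNA replication genes, 15 cell cycle arrest genes and 6 neutrophil markers, by treatment. Points are libraries with their replicate number, and bars give the group mean and SD (n = 4, 4, 3 and 3). In the mitosis panel MYCi975 replicates 2 and 3 lie at -0.25 and 0.24, and the 3 combination libraries lie between 0.012 and 0.10.

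Vehicle replicate 3 held the highest value of 15 members and MYCi975 replicate 3 that of 13. MYCi975 replicate 2 held the lowest value of 21 members. The median correlation between pairs of members over the 14 libraries was 0.33, and 87.6% of the 1225 pairs correlated positively. Among all pairs of tested genes the median was -0.0016 and 49.8% were positive. With the group means removed the median between members was 0.35, so the members also varied together within treatments. These figures describe the libraries and carry no test, since the points share the same 14 libraries.

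**Figure D3:**
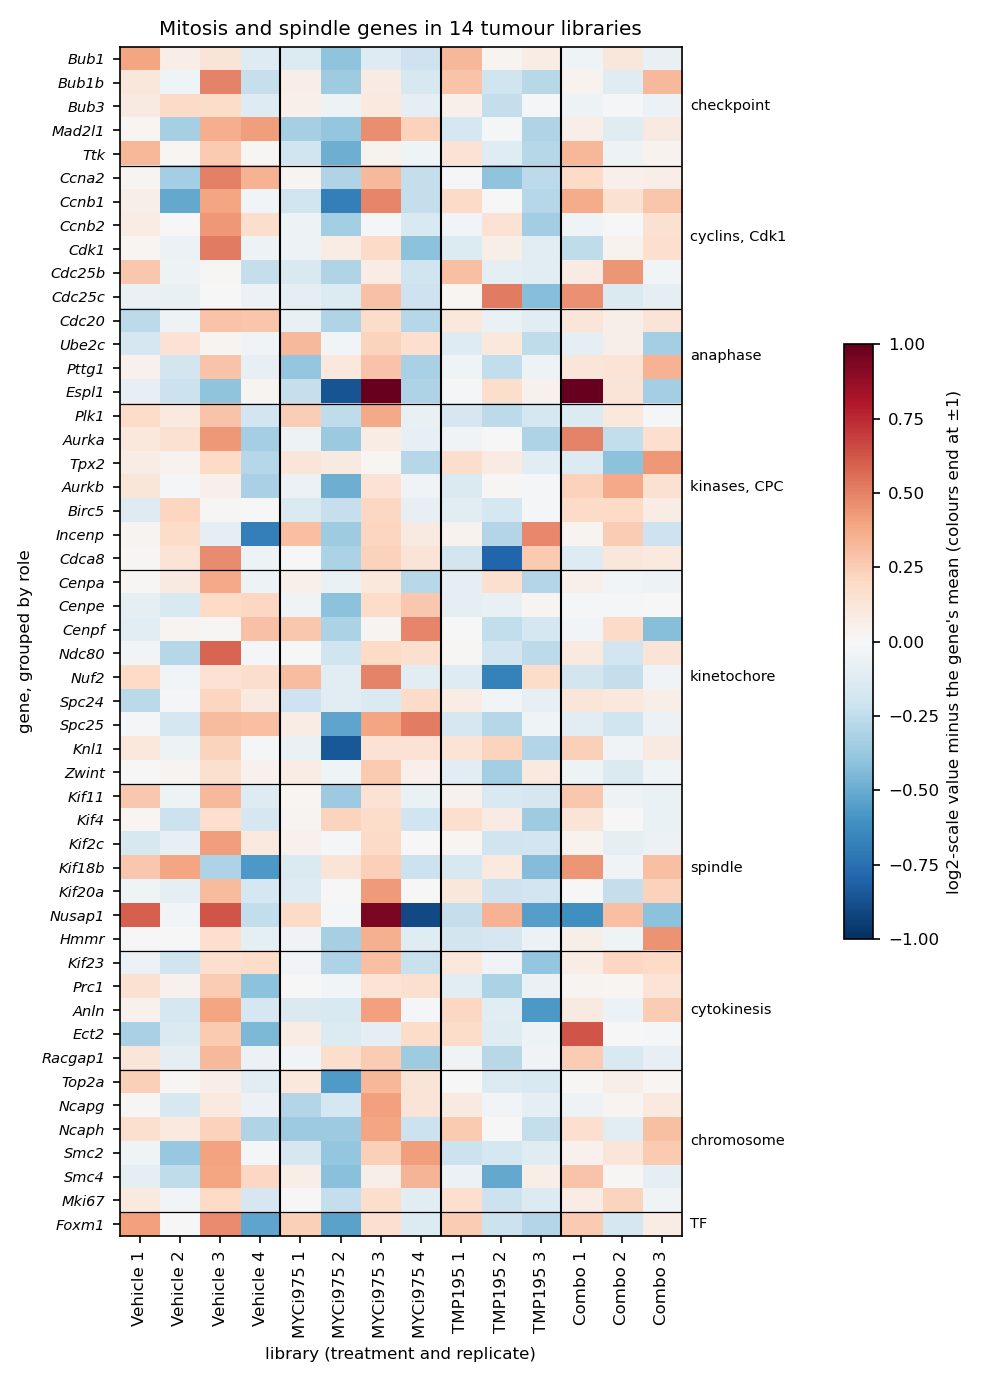
Log2-scale value minus the gene's mean over 14 libraries, for the 50 members in rows grouped by role and the libraries in columns grouped by treatment. CPC stands for chromosomal passenger complex and TF for transcription factor, and colours end at a difference of 1. Vehicle replicate 3 and MYCi975 replicate 3 are red in most rows, and MYCi975 replicate 2 is blue in most rows.

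Correlation of each member with the mean of the other 49 ran from 0.078 to 0.87, with a median of 0.55, and 32 of 50 exceeded 0.5. Kif11 (0.87), Ccnb1 (0.85), Anln (0.81) and Mki67 (0.81) followed the others most closely. At the other end stood Ube2c (0.078), Cenpf (0.098), Incenp (0.15), Kif18b (0.16), Tpx2 (0.17) and Spc24 (0.19), whose values bore little relation to the rest of the set. Members with CHR letters in their promoter had a median of 0.62 (30 genes) and those without had 0.51 (11 genes), with ranges that overlapped. The spread of a member over the 14 libraries had a median SD of 0.22, against 0.24 for all tested genes. Nusap1, which bundles spindle microtubules, had the widest spread in the set (SD 0.53) and Bub3, a checkpoint protein also used outside mitosis, the narrowest (SD 0.12).

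**Figure D4:**
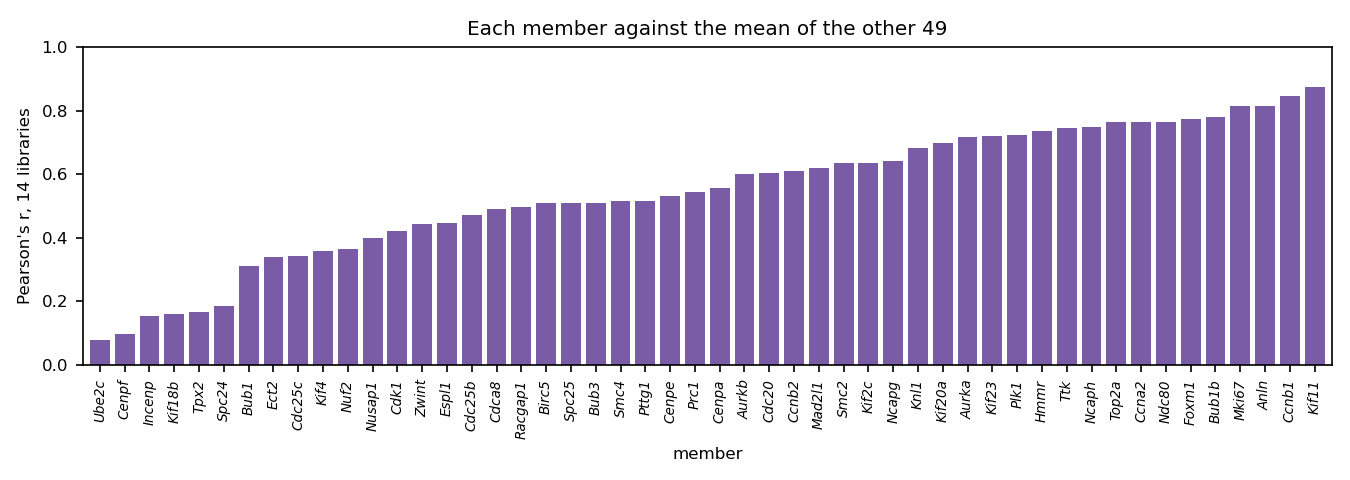
Pearson's correlation of each of the 50 members with the mean of the other 49 over 14 libraries, in rising order. Bars run from 0.078 for Ube2c to 0.87 for Kif11.

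The spindle checkpoint delays anaphase while chromosomes are unattached, and Bub1 is a kinase that loads it onto kinetochores. Bub1 was 8.23, 7.90, 7.96 and 7.70 with vehicle, 7.69, 7.43, 7.70 and 7.62 in MYCi975 tumours, 8.16, 7.86 and 7.90 in TMP195 tumours, and 7.79, 7.95 and 7.75 in the combination. All 4 MYCi975 libraries lay below all 4 vehicle libraries, with MYCi975 replicate 3 and vehicle replicate 4 both at 7.70 when rounded. Its difference with MYCi975 was -0.34 (95% interval -0.62 to -0.056), with an unadjusted p of 0.0217 and an adjusted p of 0.999 by limma, so it did not pass. With TMP195 the means were 7.97 ± 0.17 (SD, n = 3) against 7.95 ± 0.22 (SD, n = 4) for vehicle. Ttk, the kinase Mps1 that starts checkpoint signalling, was 6.99, 6.68, 6.91 and 6.67 with vehicle, 6.46, 6.17, 6.69 and 6.61 in MYCi975 tumours, 6.80, 6.53 and 6.37 in TMP195 tumours, and 6.99, 6.61 and 6.69 in the combination. MYCi975 replicate 2 was its lowest library, and the groups overlapped. Ttk differed from vehicle by -0.33 (95% interval -0.66 to 0.0039) with MYCi975. Bub3 was 7.97, 8.07, 8.06 and 7.74 with vehicle, 7.93, 7.83, 7.97 and 7.78 in MYCi975 tumours, 7.92, 7.64 and 7.86 in TMP195 tumours, and 7.82, 7.86 and 7.81 in the combination. Its values stayed between 7.64 and 8.07. The remaining members, Bub1b and Mad2l1, each had their lowest value in MYCi975 replicate 2. All 5 checkpoint genes lay below vehicle with MYCi975 (median -0.18), 4 of 5 with TMP195 (-0.15) and 5 of 5 with the combination (-0.11), and none passed the test.

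Cyclins A2, B1 and B2 activate Cdk1, and the phosphatases Cdc25b and Cdc25c remove the phosphates that hold it inactive. Cdk1 was 7.68, 7.60, 8.18 and 7.61 with vehicle, 7.61, 7.74, 7.85 and 7.25 in MYCi975 tumours, 7.52, 7.72 and 7.55 in TMP195 tumours, and 7.41, 7.70 and 7.83 in the combination. Vehicle replicate 3 was its highest library, and the values of the 4 groups overlapped. Cdk1 differed from vehicle by -0.15 (95% interval -0.50 to 0.19) with MYCi975, -0.17 (95% interval -0.55 to 0.21) with TMP195 and -0.12 (95% interval -0.50 to 0.25) with the combination, where it was 0.014 without vehicle replicate 3. Ccnb1 was 7.88, 7.31, 8.22 and 7.80 with vehicle, 7.62, 7.14, 8.31 and 7.58 in MYCi975 tumours, 8.02, 7.83 and 7.54 in TMP195 tumours, and 8.19, 7.98 and 8.10 in the combination. The 3 combination libraries lay close together in the upper part of its range, and MYCi975 replicates 2 and 3 marked both ends. Ccnb2 was 7.55, 7.47, 7.91 and 7.65 with vehicle, 7.43, 7.14, 7.45 and 7.32 in MYCi975 tumours, 7.45, 7.61 and 7.13 in TMP195 tumours, and 7.43, 7.47 and 7.63 in the combination. All MYCi975 libraries lay below all vehicle libraries, the nearest pair at 7.45 and 7.47. Its difference with MYCi975 was -0.31 (95% interval -0.61 to -0.011), with an unadjusted p of 0.0432 and an adjusted p of 0.999 by limma. Ccna2 was 8.81, 8.44, 9.28 and 9.13 with vehicle, 8.81, 8.48, 9.11 and 8.54 in MYCi975 tumours, 8.77, 8.38 and 8.52 in TMP195 tumours, and 8.98, 8.83 and 8.85 in the combination. TMP195 replicates 1 to 3 stayed below vehicle replicates 1, 3 and 4 and overlapped vehicle replicate 2. Ccna2 differed from vehicle by -0.36 (95% interval -0.77 to 0.053) with TMP195, the smallest p of the set in that comparison (unadjusted p = 0.0828, adjusted p = 1 by limma). Of the 6 genes 5 lay below vehicle in MYCi975 tumours, 4 in TMP195 tumours and 3 in the combination.

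Anaphase starts when Cdc20 and the ubiquitin-conjugating enzyme Ube2c let the anaphase-promoting complex destroy securin (Pttg1), which frees separase (Espl1) to cut cohesin. Cdc20 was 6.97, 7.18, 7.51 and 7.51 with vehicle, 7.16, 6.93, 7.41 and 6.94 in MYCi975 tumours, 7.34, 7.16 and 7.12 in TMP195 tumours, and 7.35, 7.29 and 7.36 in the combination. The range of each group overlapped the others. Ube2c was 6.06, 6.37, 6.25 and 6.19 with vehicle, 6.55, 6.20, 6.45 and 6.39 in MYCi975 tumours, 6.10, 6.33 and 5.97 in TMP195 tumours, and 6.13, 6.29 and 5.89 in the combination. Here MYCi975 libraries reached higher than vehicle, with a difference of 0.18 (95% interval -0.12 to 0.48), and Ube2c was the member that followed the set least. Espl1 was 7.41, 7.28, 7.09 and 7.52 with vehicle, 7.26, 6.63, 8.55 and 7.19 in MYCi975 tumours, 7.48, 7.66 and 7.53 in TMP195 tumours, and 8.52, 7.62 and 7.15 in the combination. Its 2 high values came from MYCi975 replicate 3 and combination replicate 1, and the other 12 libraries lay between 6.63 and 7.66. Its difference from vehicle was 0.24 (95% interval -0.53 to 0.998) with TMP195, with an interval wider than that of most members. Pttg1 lay between 5.91 and 6.65 in all libraries. Below vehicle lay 2 of the 4 genes in MYCi975 tumours, 3 in TMP195 tumours and 1 in the combination.

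Plk1, Aurka and its activator Tpx2 build the spindle poles, while Aurkb, Birc5 (survivin), Incenp and Cdca8 (borealin) form the chromosomal passenger complex, which corrects attachments and guides cytokinesis. Plk1 was 7.32, 7.23, 7.42 and 6.94 with vehicle, 7.38, 6.88, 7.51 and 7.06 in MYCi975 tumours, 6.97, 6.87 and 6.96 in TMP195 tumours, and 6.998, 7.24 and 7.12 in the combination. The TMP195 libraries were tightly grouped at the low end, and vehicle replicate 4 fell among them. Plk1 differed from vehicle by -0.30 (95% interval -0.65 to 0.057) with TMP195. Aurkb was 7.08, 6.94, 7.01 and 6.63 with vehicle, 6.89, 6.47, 7.10 and 6.92 in MYCi975 tumours, 6.81, 6.97 and 6.94 in TMP195 tumours, and 7.19, 7.33 and 7.11 in the combination. All 3 combination libraries lay above every vehicle, MYCi975 and TMP195 library, at 7.11 and 7.10 for the nearest pair. Its difference was 0.29 (95% interval -0.053 to 0.64) from vehicle and 0.36 (95% interval 0.016 to 0.71) from MYCi975, the latter with an unadjusted p of 0.0413 and an adjusted p of 0.611 by limma. Birc5 was 7.38, 7.73, 7.52 and 7.51 with vehicle, 7.37, 7.28, 7.72 and 7.43 in MYCi975 tumours, 7.39, 7.34 and 7.49 in TMP195 tumours, and 7.70, 7.71 and 7.58 in the combination. The combination libraries lay above the TMP195 libraries without overlap, at a difference of 0.26 (95% interval -0.048 to 0.56). Cdca8 was 7.05, 7.18, 7.51 and 6.99 with vehicle, 7.05, 6.72, 7.27 and 7.17 in MYCi975 tumours, 6.86, 6.25 and 7.30 in TMP195 tumours, and 6.91, 7.15 and 7.14 in the combination. TMP195 replicate 2 stood apart at 6.25, and the difference from vehicle of -0.38 (95% interval -0.84 to 0.081) was -0.11 without that library. Incenp was 8.31, 8.47, 8.20 and 7.61 with vehicle, 8.59, 7.93, 8.50 and 8.37 in MYCi975 tumours, 8.32, 7.99 and 8.77 in TMP195 tumours, and 8.31, 8.54 and 8.08 in the combination. Vehicle replicate 4 was the lowest library, and the groups overlapped. Incenp differed from vehicle by 0.20 (95% interval -0.24 to 0.65) with MYCi975 and by 0.21 (95% interval -0.27 to 0.69) with TMP195, the latter opposite in sign to its partner Cdca8. Aurka had its lowest value in MYCi975 replicate 2 and Tpx2 in combination replicate 2. Of the 7 genes 6 lay below vehicle in MYCi975 tumours, 5 in TMP195 tumours and 3 in the combination.

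Kinetochores are built on centromeric nucleosomes that carry Cenpa, and the Ndc80 complex (Ndc80, Nuf2, Spc24, Spc25) with Knl1 and Zwint grips the microtubule, helped by the motor Cenpe and the large protein Cenpf. Ndc80 was 7.76, 7.50, 8.37 and 7.78 with vehicle, 7.78, 7.59, 7.99 and 7.94 in MYCi975 tumours, 7.80, 7.60 and 7.53 in TMP195 tumours, and 7.88, 7.59 and 7.92 in the combination. Vehicle replicate 3 was the highest library and vehicle replicate 2 the lowest, so the vehicle group spanned the whole range. Nuf2 was 8.26, 8.03, 8.20 and 8.24 with vehicle, 8.37, 7.94, 8.55 and 7.95 in MYCi975 tumours, 7.93, 7.39 and 8.24 in TMP195 tumours, and 7.88, 7.82 and 8.03 in the combination. The combination libraries lay below the vehicle libraries, with the nearest pair both at 8.03 when rounded, at a difference of -0.27 (95% interval -0.68 to 0.14). Zwint was 9.02, 9.06, 9.19 and 9.07 with vehicle, 9.10, 8.98, 9.29 and 9.07 in MYCi975 tumours, 8.92, 8.69 and 9.12 in TMP195 tumours, and 8.98, 8.88 and 8.98 in the combination. The combination again lay below vehicle without overlap, at a difference of -0.14 (95% interval -0.40 to 0.12), with 8.98 and 9.02 at the nearest pair. All 9 genes lay below vehicle with TMP195 (median -0.18), 7 of 9 with the combination (-0.11) and 5 of 9 with MYCi975 (-0.025). Knl1 stood out for a single library, with 8.28 in MYCi975 replicate 2 against 8.83 to 9.36 elsewhere.

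Kif11 (Eg5) pushes the spindle poles apart, and Kif2c, Kif4, Kif18b and Kif20a are motors that shorten microtubules, shape the central spindle or carry cargo to it. Kif11 was 9.56, 9.24, 9.62 and 9.16 with vehicle, 9.31, 8.93, 9.44 and 9.23 in MYCi975 tumours, 9.34, 9.14 and 9.13 in TMP195 tumours, and 9.56, 9.25 and 9.23 in the combination. MYCi975 replicate 2 was the lowest library and vehicle replicate 3 the highest, as in the set as a whole. Kif18b was 6.68, 6.80, 6.10 and 5.83 with vehicle, 6.27, 6.53, 6.65 and 6.19 in MYCi975 tumours, 6.25, 6.51 and 5.98 in TMP195 tumours, and 6.85, 6.37 and 6.71 in the combination. Its vehicle libraries alone ran from 5.83 to 6.80, and the difference with the combination was 0.29 (95% interval -0.20 to 0.78). Nusap1 was 8.81, 8.18, 8.84 and 7.97 with vehicle, 8.40, 8.19, 9.15 and 7.31 in MYCi975 tumours, 7.98, 8.56 and 7.66 in TMP195 tumours, and 7.60, 8.51 and 7.80 in the combination. The groups overlapped over most of this wide range, and the difference with the combination was -0.48 (95% interval -1.25 to 0.29). Hmmr, a spindle protein, lay above TMP195 in all 3 combination libraries. With TMP195 6 of the 7 genes lay below vehicle, against 4 with MYCi975 and 4 with the combination.

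Cytokinesis needs the central spindle proteins Prc1, Kif23 and Racgap1, the exchange factor Ect2 that switches on RhoA, and anillin (Anln), a scaffold of the contractile ring. Anln was 9.45, 9.24, 9.80 and 9.24 with vehicle, 9.26, 9.25, 9.82 and 9.39 in MYCi975 tumours, 9.61, 9.30 and 8.83 in TMP195 tumours, and 9.50, 9.35 and 9.66 in the combination. TMP195 replicate 3 was the lowest library, and vehicle replicate 3 and MYCi975 replicate 3 were the highest. Ect2 was 7.999, 8.17, 8.58 and 7.87 with vehicle, 8.40, 8.18, 8.23 and 8.51 in MYCi975 tumours, 8.50, 8.20 and 8.27 in TMP195 tumours, and 8.95, 8.33 and 8.30 in the combination. Combination replicate 1 was the highest library and vehicle replicate 4 the lowest, and the groups overlapped. Ect2 was the only gene of the set among the 3 smallest p on the higher side in all 3 comparisons with vehicle, at 0.17 (95% interval -0.20 to 0.54) with MYCi975, 0.17 (95% interval -0.23 to 0.57) with TMP195 and 0.37 (95% interval -0.029 to 0.77) with the combination, which share the vehicle libraries. The other 4 genes lay below vehicle with TMP195, and 4 of 5 lay above vehicle with the combination.

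Top2a untangles sister DNA, condensin (Smc2, Smc4, Ncapg, Ncaph) compacts chromosomes, and Mki67 (Ki-67) coats them and is the standard marker of proliferation. Mki67 was 11.18, 11.05, 11.28 and 10.91 with vehicle, 11.08, 10.84, 11.25 and 10.97 in MYCi975 tumours, 11.24, 10.87 and 10.94 in TMP195 tumours, and 11.15, 11.30 and 11.05 in the combination. The groups overlapped, and the 14 values lay between 10.84 and 11.30. Mki67 differed from vehicle by -0.066 (95% interval -0.34 to 0.21) with MYCi975, -0.087 (95% interval -0.39 to 0.21) with TMP195 and 0.065 (95% interval -0.23 to 0.36) with the combination, where it was -0.0023 without combination replicate 2. Top2a was 11.26, 11.03, 11.09 and 10.91 with vehicle, 11.13, 10.45, 11.36 and 11.15 in MYCi975 tumours, 11.02, 10.89 and 10.87 in TMP195 tumours, and 11.03, 11.08 and 11.04 in the combination. MYCi975 replicate 2 at 10.45 lay well below the other libraries, whose lowest value was 10.87, and MYCi975 replicate 3 was the highest. Foxm1, which drives transcription of many of these genes, was 7.87, 7.45, 7.93 and 6.92 with vehicle, 7.69, 6.92, 7.63 and 7.32 in MYCi975 tumours, 7.71, 7.24 and 7.16 in TMP195 tumours, and 7.71, 7.29 and 7.53 in the combination. Vehicle replicate 4 and MYCi975 replicate 2 were its lowest libraries, both at 6.92. Foxm1 differed from vehicle by -0.15 (95% interval -0.64 to 0.33) with MYCi975, -0.17 (95% interval -0.69 to 0.35) with TMP195 and -0.031 (95% interval -0.55 to 0.49) with the combination. Without MYCi975 replicate 2 the difference with MYCi975 was 0.0035, and with the combination it was 0.077 without vehicle replicate 1, 0.098 without vehicle replicate 3 and 0.080 without combination replicate 2. Of condensin, Smc4 ran from 9.75 in TMP195 replicate 2 to 10.66 in vehicle replicate 3, and Ncapg from 7.83 to 8.53, both in MYCi975 libraries. Of the chromosome genes 4 of 6 lay below vehicle in MYCi975 tumours, 5 in TMP195 tumours and 1 in the combination.

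**Figure D5:**
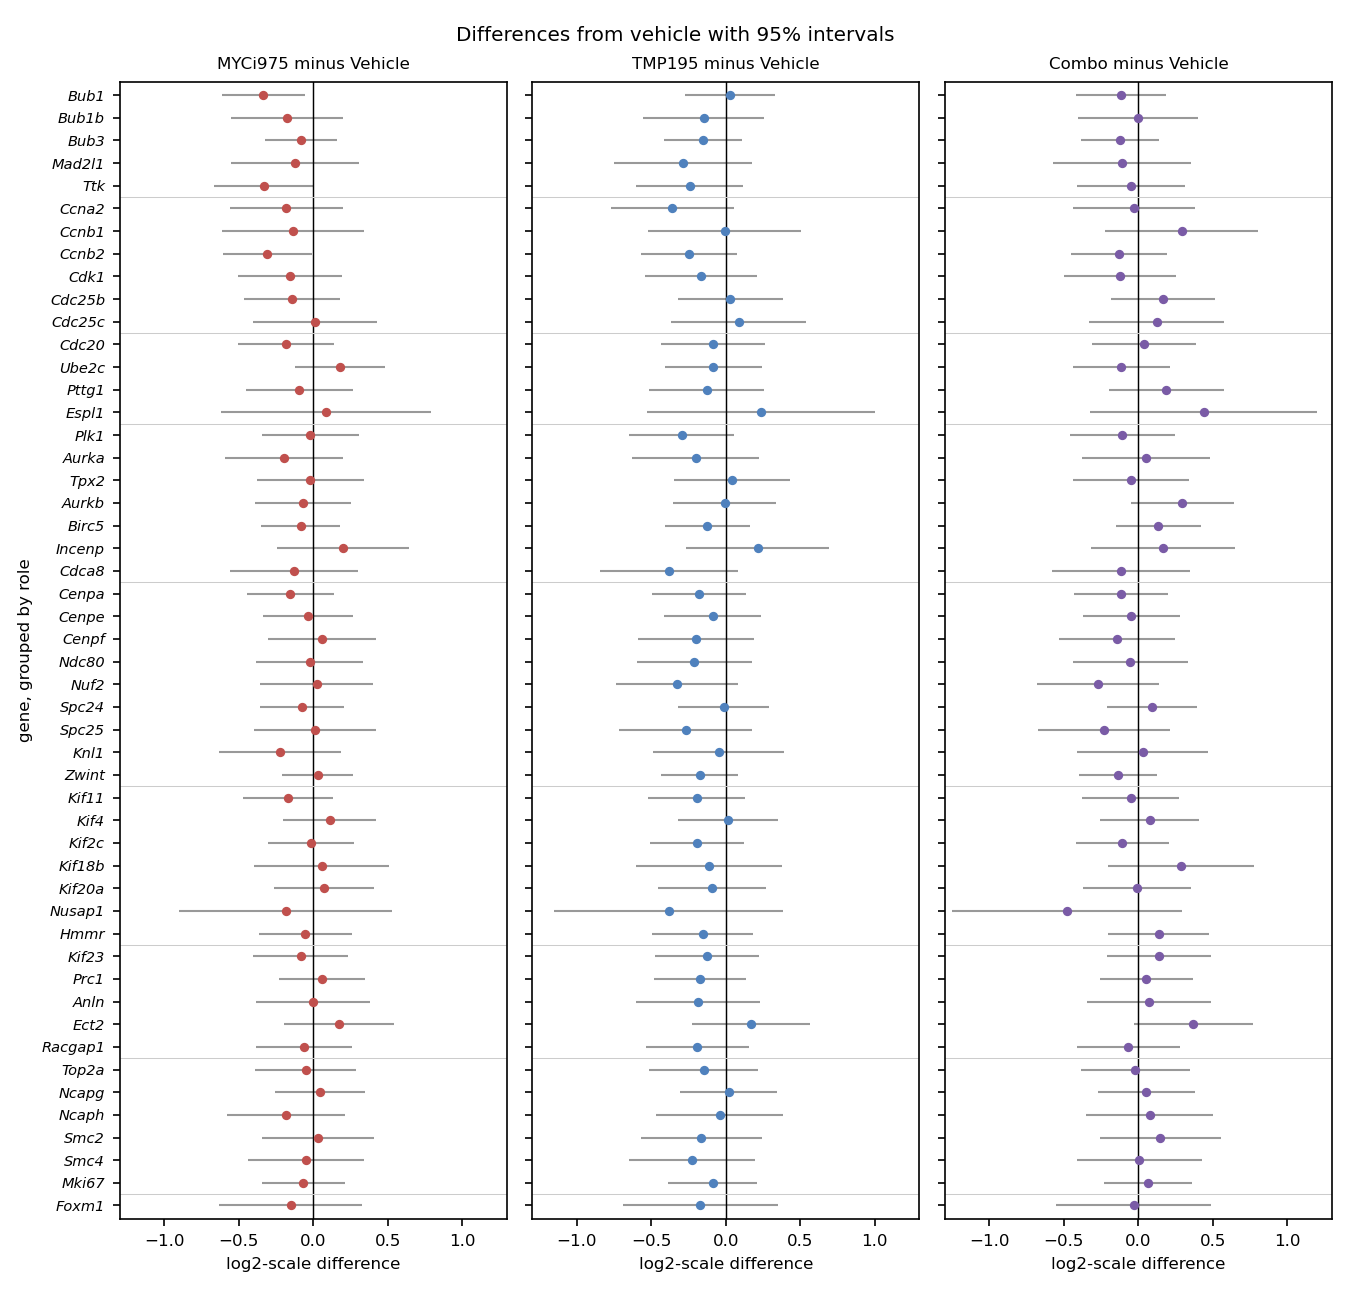
Difference from vehicle on the log2 scale for each of the 50 members with MYCi975, TMP195 and the combination, with 95% intervals from the limma fit over 14 libraries. Intervals exclude 0 for Bub1 and Ccnb2 with MYCi975 and for no member with TMP195 or the combination, before any adjustment.

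With MYCi975 against vehicle 0 of 50 members passed the adjusted threshold, as did 0% of all 13711 tested genes, of which 457 (3.33%) had an unadjusted p under 0.05. At an unadjusted p under 0.05 there were 2 lower members, Bub1 and Ccnb2, and 0 higher, where 1.49% of all tested genes were lower and 1.85% higher at that level. The same 2 genes were those whose groups did not overlap, against 0.707% of tested genes on the lower side and 1.03% on the higher. Of the 50 members 35 lay below vehicle, against 48.3% of all tested genes, with a median of -0.064 and a range from -0.34 to 0.20. Since the members move together between libraries, such a count does not rest on 50 independent observations. The median was 0.0075 without MYCi975 replicate 2 (22 of 50 lower) and -0.15 without MYCi975 replicate 3. It was -0.0037 without vehicle replicate 3 and -0.11 without vehicle replicate 4. The half-width of the 95% interval had a median of 0.34 over the members, and a difference smaller than its half-width cannot be told from 0 with these libraries.

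With TMP195 against vehicle 0 of 50 members passed (0% of all tested genes did), and 0 had an unadjusted p under 0.05, against 2.78% of tested genes. Groups overlapped in all 50 members, where they did not in 1.87% of tested genes on the lower side and 2.4% on the higher. Of the 50 members 41 lay below vehicle, against 49.2% of all tested genes, with a median of -0.15 and a range from -0.38 (Nusap1) to 0.24 (Espl1). Without vehicle replicate 3 the median was -0.067. Same-numbered vehicle and TMP195 libraries deviated together only weakly (correlations of 0.11 to 0.21). The mean of the set was lower with TMP195 in 3 of 3 such pairs, as was that of the DNA replication genes. The labels give these pairs only a shared number, and without pairing the set's library means overlapped between vehicle and TMP195. With the replicate number as a block in a fit to these groups alone, a choice made after seeing the data, the median was -0.18 and 44 of 50 members lay below vehicle. Vehicle replicate 4 has no TMP195 partner and drops out of this fit, which rests on 3 pairs and 2 residual degrees of freedom. Its differences equal those without vehicle replicate 4, as for Plk1 (-0.39 in both), so the shift in the median is not an effect of pairing. The block left 0 members past the adjusted threshold, and 3 (Plk1, Cdca8 and Prc1) had an unadjusted p under 0.05, against 4.11% of tested genes, with an adjusted p of 0.998 each by limma.

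With the combination against vehicle 0 of 50 members passed (0% of all tested genes) and 0 had an unadjusted p under 0.05, against 3.43% of tested genes. Members lay evenly on both sides, 26 below and 24 above vehicle, where 50.3% of tested genes lay below, with a median of -0.0049 and a range from -0.48 (Nusap1) to 0.44 (Espl1). Groups did not overlap for Aurkb on the higher side (2.8% of tested genes) and for Nuf2 and Zwint on the lower side (3.27%). This median lay near 0 and took either sign when single libraries were left out, from -0.053 without vehicle replicate 4 to 0.098 without vehicle replicate 3, with 0.0063 without vehicle replicate 1, -0.039 without vehicle replicate 2 and -0.025, 0.049 and -0.0098 without combination replicates 1, 2 and 3. Only 15 of 50 members lay below vehicle without vehicle replicate 3.

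Against the single agents the combination libraries lay higher in most members, without a call. Compared with TMP195, 45 of 50 members were higher (51.1% of all tested genes were), with a median of 0.13, and 0 passed the adjusted threshold (0% of tested genes). At an unadjusted p under 0.05 there were 0 members, against 4.4% of tested genes. Groups did not overlap on the higher side for 9 members, namely Birc5, Aurkb, Hmmr, Pttg1, Ccna2, Smc2, Prc1, Plk1 and Top2a, where 5.48% of all tested genes did so. With the value of Ptprc in each library as a covariate the median was 0.017 and 19 of 50 members were lower. Ptprc itself did not overlap between these groups (9.65 to 10.35 with the combination, 10.46 to 11.45 with TMP195). Here the covariate and the treatment thus cannot be told apart. The 5 lower members became 8 without TMP195 replicate 2, 11 without TMP195 replicate 3 and 8 without combination replicate 1. Compared with MYCi975, 33 of 50 members were higher (50.2% of tested genes), with a median of 0.091, and 0 passed the adjusted threshold (0% of tested genes). Aurkb alone had an unadjusted p under 0.05 there, against 3.14% of tested genes on the higher side, and groups did not overlap on that side for Aurkb and Bub1 (3.53% of tested genes). On the lower side the smallest p was that of Ube2c, at -0.29 (95% interval -0.62 to 0.032). With Ptprc as a covariate this median was -0.016, and it was 0.021 without MYCi975 replicate 2 and 0.17 without MYCi975 replicate 3 (8 members lower). It was 0.029, 0.14 and 0.058 without combination replicates 1, 2 and 3.

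The interaction asks whether the difference between combination and TMP195 equals that between MYCi975 and vehicle. It was above 0 for 44 of 50 members (50.2% of all tested genes), with a median of 0.21, and no member or other gene passed (0%). Ttk had the smallest p, at 0.52 (95% interval 0.014 to 1.03) with an unadjusted p of 0.0447 and an adjusted p of 0.911 by limma, followed by Ccnb2 at 0.42 (95% interval -0.033 to 0.88). At an unadjusted p under 0.05 Ttk was the only member, against 1.74% of tested genes on the higher side. These comparisons share libraries with those above, so the same high or low library enters several of them. With Ptprc as a covariate the median was 0.090. The 6 members below 0 became 3 without vehicle replicate 2 or TMP195 replicate 1, 10 without TMP195 replicate 2, 11 without vehicle replicate 3 and 14 without MYCi975 replicate 2.

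Other genes of mitosis lay on the same side of vehicle as the members in the first 2 comparisons. Of the 84 listed 83 were tested, and 0 passed in any comparison. With MYCi975 55 of 83 lay below vehicle (median -0.057), with TMP195 58 (-0.097) and with the combination 39 (0.032). The smallest p belonged to Shcbp1 (-0.50, 95% interval -0.91 to -0.092) and Cenpi (-0.35, 95% interval -0.67 to -0.035), a kinetochore gene, with MYCi975. The smallest with TMP195 were those of Cdc25a (-0.45, 95% interval -0.79 to -0.11), a Cdk-activating phosphatase, and Shcbp1 (-0.48, 95% interval -0.92 to -0.039). The smallest with the combination were those of Wee1 (0.40, 95% interval 0.077 to 0.72), the kinase that restrains Cdk1, and Mis12 (-0.29, 95% interval -0.55 to -0.038), a kinetochore gene.

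DNA replication genes, which act in S phase, were compared because dividing cells express them too. Of 43 genes 29 lay below vehicle with MYCi975 (median -0.091), 37 with TMP195 (-0.16) and 29 with the combination (-0.055), and 0 passed. With TMP195 the smallest p belonged to Pola1, the catalytic subunit of DNA polymerase alpha (-0.44, 95% interval -0.74 to -0.15), and to Gins2 of the replicative helicase (-0.54, 95% interval -1.001 to -0.088). With MYCi975 they were Prim2 (-0.28, 95% interval -0.52 to -0.026) and Pola2 (-0.31, 95% interval -0.62 to -0.0052) of the primase complex, and with the combination Pola1 (-0.33, 95% interval -0.62 to -0.029) and Rrm2 (0.28, 95% interval -0.056 to 0.61). Library means of the replication genes were also highest in MYCi975 replicate 3 (0.18) and vehicle replicate 3 (0.17), the libraries where the mitosis genes were highest. The lowest were TMP195 replicate 2 (-0.19) and MYCi975 replicate 2 (-0.14).

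Genes of cell cycle arrest act against entry into the cycle. Of 16 listed genes 15 were in the table and 13 were tested. With MYCi975 12 of 13 lay above vehicle (median 0.11), with TMP195 8 (0.090) and with the combination 5 (-0.078), and 0 passed. Gadd45a, a stress-induced gene, differed by 0.64 (95% interval 0.27 to 1.01) and Cdkn1b, which encodes the Cdk inhibitor p27, by 0.39 (95% interval 0.056 to 0.72) with MYCi975. Ccng2, an unconventional cyclin linked to arrest, differed by 0.62 (95% interval 0.27 to 0.96) and Cdkn1b by 0.26 (95% interval -0.10 to 0.62) with TMP195. With the combination the smallest p were those of Rbl2 (0.22, 95% interval -0.048 to 0.49), which encodes the pocket protein p130, and Cdkn2d (-0.21, 95% interval -0.54 to 0.11), a Cdk4 inhibitor. Library means of the arrest list were 0.22, 0.43, 0.0048 and -0.058 in MYCi975 replicates 1 to 4, against -0.042, -0.17, -0.079 and -0.028 in vehicle. MYCi975 replicates 1 to 3 lay above every vehicle library, replicate 3 by little, and replicate 4 lay inside the vehicle range. All TMP195 libraries (-0.0072, -0.018 and 0.060) also lay above every vehicle library, the first 2 by little. The combination libraries (-0.092, -0.10 and -0.13) lay inside the vehicle range. The neutrophil list had its 2 highest means in MYCi975 replicates 1 and 2 as well (0.55 and 1.36, against -0.29 and 0.12 in replicates 3 and 4), and the leukocyte list its highest in replicate 2 (1.18). The part of these cells in the arrest values was not tested.

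Over all 14 libraries immune markers tended to be higher where the mitosis genes were lower, but not in every library. Correlation with the mean of the set over 14 libraries was below 0 for all 5 leukocyte markers (-0.63 to -0.41), all 6 neutrophil markers (-0.79 to -0.43), all 10 macrophage and monocyte markers (-0.68 to -0.030) and all 6 tested markers of T and NK cells (-0.72 to -0.46). Among all other tested genes 6819 of 13661 were below 0. These correlations were not recomputed without MYCi975 replicate 2 and TMP195 replicate 3, which had the highest leukocyte means (1.18 and 0.70). Vehicle replicate 3, where the mitosis genes were highest, had leukocyte, macrophage and T and NK means of 0.25, 0.47 and 0.069. Its neutrophil mean was -0.71. The vehicle libraries had a leukocyte mean of 0.0099 ± 0.30 (SD, n = 4; range -0.39 to 0.25) and the MYCi975 libraries 0.24 ± 0.66 (SD, n = 4; range -0.31 to 1.18). The TMP195 libraries had 0.20 ± 0.46 (SD, n = 3; range -0.19 to 0.70) and the combination libraries -0.53 ± 0.25 (SD, n = 3; range -0.82 to -0.37). All 3 combination libraries were below 0 in leukocyte markers, as were 2 vehicle, 2 MYCi975 libraries and 1 TMP195 library. Of 5 leukocyte markers none was at the lowest value of the table in any library. For single genes the relation to Ptprc was weak. Over 14 libraries Mki67 had Pearson's r = -0.47 (permutation p = 0.0882, adjusted 0.216). Its Spearman's rho was -0.34 (permutation p = 0.241, adjusted 0.572), and r was -0.086 without MYCi975 replicate 2 and TMP195 replicate 3, whose Ptprc values lay farthest from the median, so it rests on those samples. Cdk1 had r = 0.15 (permutation p = 0.592, adjusted p = 0.592) and rho = 0.15 (permutation p = 0.618, adjusted p = 0.618), with r = 0.26 without them. Foxm1 had r = -0.41 (permutation p = 0.144, adjusted p = 0.216) and rho = -0.25 (permutation p = 0.381, adjusted p = 0.572), with r = 0.12 without them, so its sign rests on those samples too. These were 3 relations, tested two-sided with 100000 resamples. Groups of 3 or 4 libraries are too small for a value within each treatment. The covariate values above are descriptive, and the part of immune cell RNA in the members' values was not tested. Skeletal muscle markers also differed between libraries, with a list mean from -1.21 to 1.99 and the highest value in vehicle replicate 3, where the mitosis genes were highest. The second highest (1.42) was in MYCi975 replicate 2, where the mitosis genes were lowest, and the 3 tested muscle markers correlated with the mean of the set at only 0.081 to 0.12.

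The 5 genes outside the set whose values most resembled its mean over the 14 libraries were Prr11 (r = 0.94), a cell cycle-regulated gene, Eif3j1 (0.92), a translation initiation factor, Selenoh (0.87), a selenoprotein, Fbxo21 (0.86), an F-box protein, and Gnb1 (0.86), a G protein subunit. None of them belongs to the lists above.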

How the data were processed

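The authors deposited 1 table of 21152 genes by 14 libraries with values on a log2 scale, variance-stabilised per the name of the file. The submitters' processing notes name Salmon, without a version, and the genome build hg38, which is human although the gene IDs are mouse, so no coordinates are taken from the table. For filters and scaling before deposit, the sources used here give nothing. Per the labels' protocols RNA came from an enriched tumour population and a stranded total RNA kit was used. The design text speaks of a bulk suspension instead. Symbols matched 20264 IDs (95.8%). All table columns were matched to samples by their description labels.

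Genes whose mean exceeded the lowest value, 4.05, by more than 1 were tested (13711). A limma 3.58.1 model in R 4.3.3 took all 14 libraries, 1 mean for each group and an intensity trend (10 residual and 5.27 prior degrees of freedom), two-sided, with Benjamini-Hochberg adjustment over all tested genes and a threshold of 0.05. The procedure was tested on simulated data. Read depth is unknown, so precision is given by the spread between libraries. Library means of lists average values centred on each gene's mean over 14 libraries.

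Same-numbered libraries of vehicle and TMP195 deviated together weakly from their group means (3 pairs, correlations of 0.11 to 0.21 across tested genes). Of the 9 other pairs 7 were below 0, which is no separate evidence, since deviations from a group mean sum to 0. The highest other pair, vehicle replicate 2 with TMP195 replicate 1, was also at 0.11. In no other pair of groups did every same-numbered pair exceed 0.1. The labels give only the number.

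Members and lists were chosen with earlier results of these data known. All members could be named. Values in every library were given for 12 core members and, in either direction, for the 3 smallest p of each comparison with vehicle. Other comparisons gave the 2 smallest p, other lists the 2 smallest p against vehicle, and likeness the 5 highest correlations. Bub3 and Nusap1 stand for the narrowest and the widest spreads. Alternatives were no filter, a filter 2 above the lowest value, no trend, moderation made robust, quantile normalisation or centring on library medians, weights for libraries, a fit to the compared groups alone, a replicate block, Ptprc as a covariate, and leaving out each library.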

Additional observations from a re-analysis of the deposited data

Results flagged for a closer look

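Cdk1 in vehicle replicate 3 (8.18) stood far from the other 3 vehicle libraries, which lay between 7.60 and 7.68. It was the only such library among the 100 checks of 50 members in the vehicle and MYCi975 groups. Ccng2 in vehicle replicate 2 (6.99) lay below the other vehicle libraries (7.35 to 7.41). In MYCi975, Pola2 in replicate 3 (8.54) lay above the others (8.002 to 8.04), and Gadd45a in replicate 2 (8.69) above the others (8.23 to 8.29). Of the 15 other named genes checked in each group, 1 was flagged with vehicle and 2 with MYCi975. Among marker lists, MYCi975 replicate 2 had an endothelial mean of 0.33 against -0.068 to -0.040 in the other MYCi975 libraries, and an erythroid mean of -1.37 against 0.24 to 0.51. Of 23 list means checked in each group, 0 were flagged with vehicle and 2 with MYCi975. A library counts as far from the others where its gap to the nearest, divided by the group's range, is above Dixon's 95% critical value, which chance alone gives in about 1 of 20 groups.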

How the results depend on the processing

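The count of genes past the threshold was 0 in all 6 comparisons under all 11 alternative settings and the 14 fits that left out 1 library, and so was the count of members. At an unadjusted p under 0.05 limma found 457, 381 and 470 genes for MYCi975, TMP195 and the combination against vehicle. The members' median difference moved by less than the spread of library means within groups (0.14) in every one of these fits. Leaving out 1 library moves the mean of a group by only a part of that library's deviation. Those fits could thus hardly pass this limit. With MYCi975 against vehicle the median still ran from -0.15 to 0.0075 when 1 library was left out. The spread of 0.14 exceeds the median itself for MYCi975 and the combination against vehicle, and for the combination against either agent. A median could therefore vanish or change sign within it. The medians for TMP195 against vehicle (-0.15) and for the interaction (0.21) are larger. The spread is that of single libraries and not the error of a difference, so this does not set them apart from 0. With Ptprc the median went from 0.13 to 0.017 for the combination against TMP195, and from 0.091 to -0.016 against MYCi975. The count of members below 0 moved by over 1.5 times under some settings. For the combination against MYCi975, with 17 members lower, it was 9 after quantile normalisation and 28 with Ptprc as a covariate. For the combination against TMP195, with 5 lower, it was 19 with Ptprc, whose values did not overlap between these groups. For the interaction, with 6 below 0, it was 3 after quantile normalisation, 10 with library weights and 16 with Ptprc. The cause was not tested. The replicate block for vehicle and TMP195 alone, was chosen after seeing the data. A fit to the compared groups alone was not run for the interaction, which uses every group.

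Leaving out 1 library, the count of lower members ran from 22 to 44 for MYCi975, from 15 to 28 for the combination, from 8 to 21 for the combination against MYCi975, from 5 to 11 for the combination against TMP195 and from 3 to 14 for the interaction. Over these fits the differences of named members changed sign 6 times, counting each fit. With MYCi975 the member was Foxm1 (-0.36 to 0.0035). With the combination the members were Foxm1 (-0.24 to 0.098, in more than 1 fit), Cdk1 (-0.22 to 0.014) and Mki67 (-0.0023 to 0.13). All 522 values of named genes under the other settings kept their direction. With the replicate block, a term for the replicate number, 0 genes were called in any comparison and 44 of 50 members lay below vehicle with TMP195. In the fit to vehicle and TMP195 alone, where vehicle replicate 4 drops out for want of a partner, the block gave 0 genes called and a median of -0.18. It changed no other call. Outside these groups same-numbered libraries did not all deviate together (correlations from -0.30 to 0.21). Such correlations cannot show whether libraries were paired, and the labels give only the number.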
